A study of Homo sapiens with 6 samples.

Results

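Open chromatin was examined around 9 genes, grouped as MYC, AP-1 and immediate early genes. They were MYC, the AP-1 genes FOS, FOSB, FOSL2, JUN, JUNB and JUND, and the stress and growth response genes ATF3 and EGR1. The genes were taken by name, each with its hg19 transcription start. The peaks within 2 kb of a start, and then within 100 kb, were collected from 3 deposited ATAC-seq peak lists. ATAC-seq uses a transposase to cut accessible DNA, so that open stretches stand out as peaks. Joined across the lists, the peaks near these genes formed 49 of the 21031 accessible regions of the series. The cells were LNCaP, a human prostate cancer cell line that responds to androgen, in isogenic versions that carried a control hairpin (shCON) or one that targets RB, the retinoblastoma protein (shRB). Every group had 72 hours of CDT, which the series describes as hormone deficient. The groups were shCON CDT, shRB CDT, and shCON DHT, which also had 3 hours of dihydrotestosterone, an androgen. Each group had 2 libraries, made from 75000 cells per reaction, and the authors merged these into 1 peak list.

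Immediate early genes are switched on within minutes of a growth factor, hormone or stress signal, without new protein synthesis. FOS and JUN family proteins pair through their leucine zippers to form AP-1, which binds DNA and turns on further genes, while JUNB and JUND can also oppose JUN. ATF3 is a related zipper protein induced by stress, EGR1 is a zinc finger activator, and MYC, paired with MAX, drives growth and ribosome production. In prostate cancer cells MYC and AP-1 factors interact with androgen receptor signalling, and RB restrains the cell cycle genes that growth signals switch on.

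The 3 lists held 12096 peaks (shCON CDT), 12896 (shCON DHT) and 14788 (shRB CDT). Each peak has a whole-number score of at most 1000, whose meaning no label or header gives. It was used here to rank peaks within a list, with 1000 called the cap, and not as a height across lists. The lists hold no counts, so depth is unknown, no value has a replicate error and no difference between conditions could be tested. That a list lacks a peak does not show that the chromatin was closed. Whether a peak lies in an exon or intron, the opening of LNCaP marker genes, and the other genes of the pathway were not analysed here for want of an hg19 annotation. The lists cannot show how far the hairpin lowered RB.

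Promoter sequences came from a table of RefSeq promoters (GRCh38.p14), in which 8 of the 9 genes were matched by symbol, all but MYC. RefSeq's starts need not be the same base as the hg19 starts, so the sequences were not laid on the peaks base by base. The 250 bases before the start are shown for 5 genes, 5′ to 3′ on the gene's strand. FOS and JUNB are examples whose peaks near the start differed between lists. EGR1 and JUND are examples whose peaks at the start were at the score cap in every list. FOSB is an example whose start carried no listed peak. The same holds for other genes: FOSL2 and JUN were also capped in every list, ATF3 also lacked a start peak, and the MYC start peak also differed. The 5 sequences lie at chr14:75278578-75278827 (plus strand), chr19:12791236-12791485 (plus), chr5:138465229-138465478 (plus), chr19:18281623-18281872 (minus) and chr19:45467746-45467995 (plus). Capitals mark matches, on either strand, to a set of motifs: the AP-1 site TGANTCA, the cAMP response element TGACGTCA, the serum response element, the EGR site GCGTGGGCG, the E-box CACGTG and the SP/KLF site GGGCGG.
FOS: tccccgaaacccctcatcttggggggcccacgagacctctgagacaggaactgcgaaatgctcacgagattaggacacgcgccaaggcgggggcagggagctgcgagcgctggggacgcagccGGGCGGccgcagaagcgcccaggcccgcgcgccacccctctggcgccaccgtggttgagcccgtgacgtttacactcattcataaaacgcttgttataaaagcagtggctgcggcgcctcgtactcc
JUNB: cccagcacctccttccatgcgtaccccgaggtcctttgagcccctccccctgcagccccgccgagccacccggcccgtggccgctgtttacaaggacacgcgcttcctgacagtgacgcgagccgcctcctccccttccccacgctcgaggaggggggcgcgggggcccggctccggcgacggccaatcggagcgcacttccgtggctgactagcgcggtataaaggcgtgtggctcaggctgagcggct
EGR1: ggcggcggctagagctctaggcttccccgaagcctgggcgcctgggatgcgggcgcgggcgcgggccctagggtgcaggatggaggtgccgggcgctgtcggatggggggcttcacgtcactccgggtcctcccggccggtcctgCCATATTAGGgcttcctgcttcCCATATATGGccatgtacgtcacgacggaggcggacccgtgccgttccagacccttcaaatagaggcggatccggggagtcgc
JUND: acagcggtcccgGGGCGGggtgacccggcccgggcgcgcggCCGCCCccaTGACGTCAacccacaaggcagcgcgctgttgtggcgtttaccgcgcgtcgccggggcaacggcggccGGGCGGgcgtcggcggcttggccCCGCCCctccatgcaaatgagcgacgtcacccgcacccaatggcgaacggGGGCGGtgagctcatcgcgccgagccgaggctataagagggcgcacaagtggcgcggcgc
FOSB: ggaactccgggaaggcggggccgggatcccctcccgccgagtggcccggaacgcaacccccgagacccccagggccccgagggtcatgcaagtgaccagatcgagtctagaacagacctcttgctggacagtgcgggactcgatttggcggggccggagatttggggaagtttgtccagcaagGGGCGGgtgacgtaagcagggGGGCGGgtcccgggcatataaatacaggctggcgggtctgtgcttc

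EGR1 held 2 serum response elements, the element bound by serum response factor, from 105 to 96 and from 83 to 74 bases before its start. Of all 35116 RefSeq promoters, 1.16% held this element in the same 250 bases. JUND held the cAMP response element from 200 to 193 bases before its start, which 1.65% of all promoters held, and 5 SP/KLF sites. FOS held 1 SP/KLF site, FOSB held 2, and JUNB held none of the motifs in this window. JUN and FOSL2, whose start peaks were also capped in every list, held SP/KLF sites and no other motif of the set, and so did ATF3. Over the 9 promoters that the table gives for these genes, ATF3 having 2, the SP/KLF site was in 6, against 42.6% of all promoters. None of the 9 held the AP-1 site, the EGR site or the E-box, which were in 6.57%, 0.720% and 6.34% of all promoters. No 2 matches overlapped. Only matches to these fixed patterns within the 250 bases were counted. A variant of a motif, or an element further upstream, would be missed, so the absence of a match does not show that a gene lacks such an element. A match describes letters, not binding.

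A peak lay within 2 kb of the start for 7 of the 9 genes in each shCON list and for 8 in shRB CDT. For comparison, a peak lay in 1.84% (shCON CDT), 1.86% (shCON DHT) and 2.29% (shRB CDT) of all 4 kb tiles of the genome, which is not a background of promoters, since those of other genes could not be placed. The start itself was covered in 6 genes in each CDT list and in 7 in shCON DHT. FOS, FOSL2, JUN, JUND and EGR1 had their start covered in every list, MYC and JUNB in some lists, and FOSB and ATF3 in none.

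**Figure D1:**
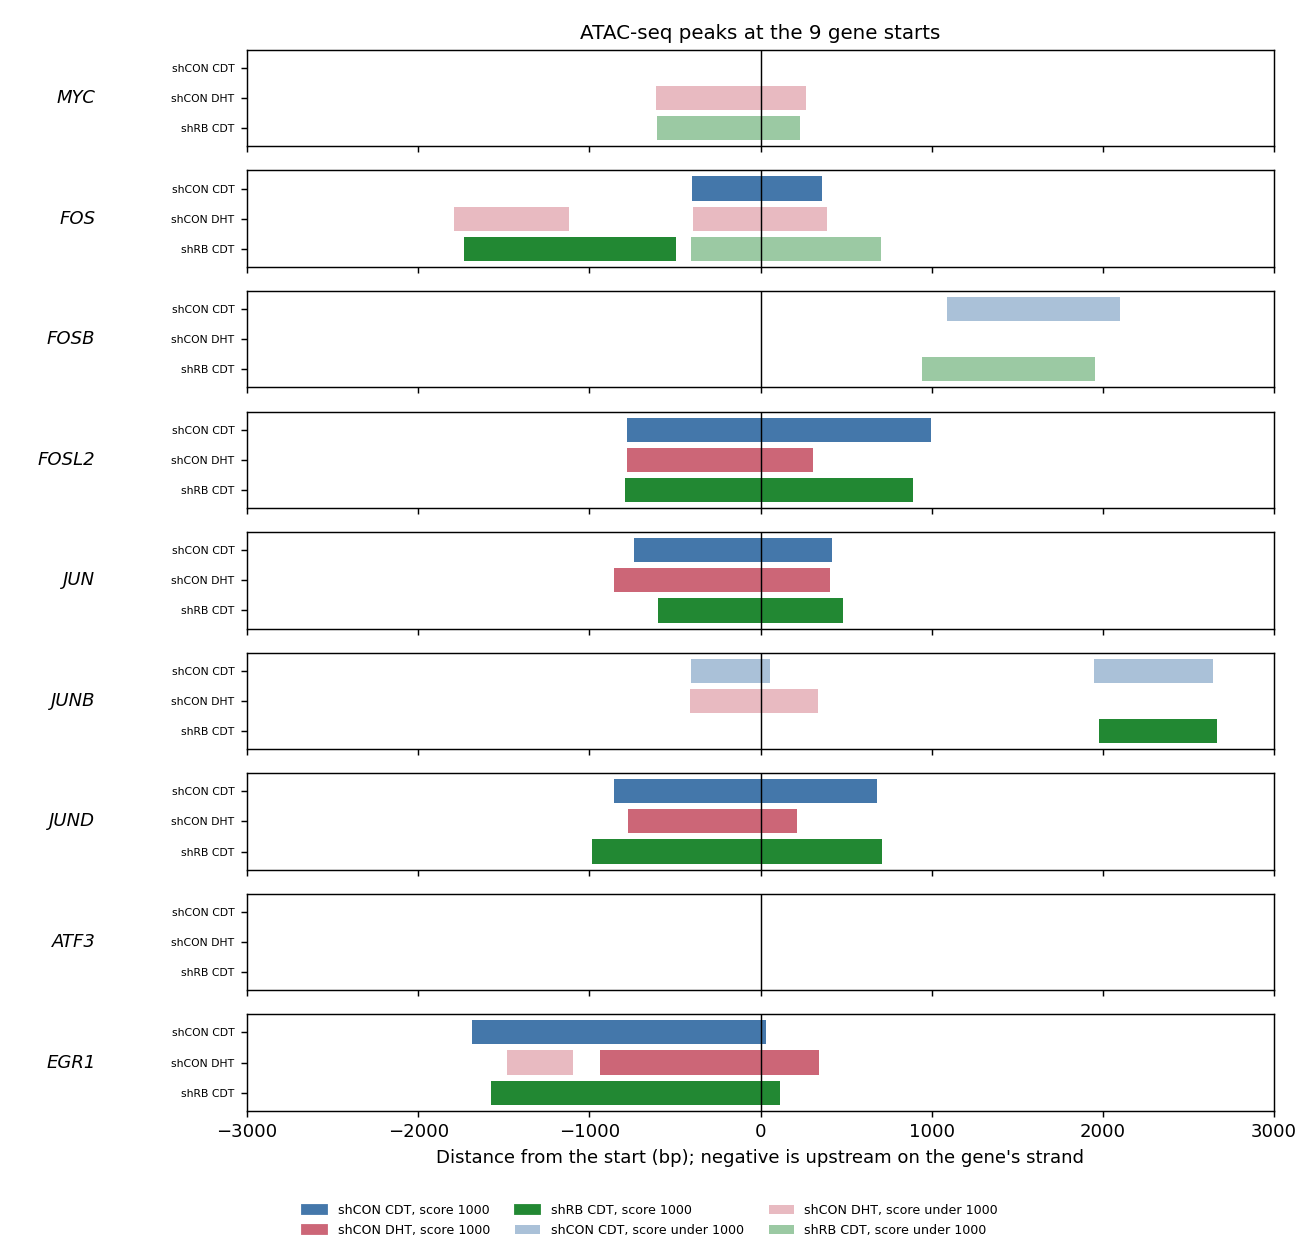
Peaks of the 3 lists (rows) against the distance in bp from the start of each gene (panels), upstream to the left. Solid bars are peaks at the score cap of 1000 and pale bars score lower. FOSL2, JUN, JUND and EGR1 have a capped peak over the start in every list. MYC has a lower-scoring start peak in shCON DHT and shRB CDT, and JUNB has one in both shCON lists. ATF3 has no peak within 2 kb of the start used.

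MYC, the growth-driving transcription factor (start at 128748315 on chromosome 8), had a start peak in shCON DHT and shRB CDT and none in shCON CDT. In shCON DHT the peak ran from 608 bp upstream to 268 bp downstream and scored 502, above 22.7% of its list. In shRB CDT it ran from 604 bp upstream to 231 bp downstream and scored 537, above 24.0% of its list. The outlines were nearly the same, and both scores lay in the lower part of their lists. The nearest shCON CDT peak began 40.4 kb downstream. Both peaks at the MYC start dropped out when only the top 50% of each list by score was kept.

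Among the FOS family, FOS (start at 75745481 on chromosome 14) had a start peak in every list, 757 bp wide in shCON CDT, 784 bp wide in shCON DHT and 1111 bp wide in shRB CDT. Its score of 1000 in shCON CDT compared with 448 in shCON DHT and 766 in shRB CDT, which is above 67.5%, 10.2% and 48.5% of the respective list. The start peak of FOS was thus at the cap only in shCON CDT. Further upstream, shCON DHT had a peak from 1792 to 1121 bp upstream with a score of 761, shRB CDT had one from 1732 to 492 bp upstream at the cap, and shCON CDT had none. The shRB CDT peak upstream ended 86 bp short of its start peak, so that the pair spanned 2438 bp. Among the top-scoring 50% of each list, only shCON CDT kept its start peak of FOS. The upstream shRB CDT peak also came within 92 bp of the shCON CDT start peak, and counted as shared where peaks up to 500 bp apart were joined.

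FOSB (start at 45971253 on chromosome 19) had no peak over its start in any list. Both CDT lists had a peak just downstream, from 1090 to 2097 bp in shCON CDT with a score of 920, and from 945 to 1952 bp in shRB CDT with a score of 938. Each was 1008 bp wide, and both ranked above 61.0% or more of their list. In shCON DHT the peak nearest to the start was 16.7 kb upstream. FOSL2, which encodes the FRA2 protein (start at 28615779 on chromosome 2), had a capped start peak in every list. It measured 1772 bp in shCON CDT, 1682 bp in shRB CDT and 1090 bp in shCON DHT. The upstream edges differed by little, at 777, 781 and 791 bp, while the downstream edge was at 994 bp in shCON CDT, 890 bp in shRB CDT and 308 bp in shCON DHT.

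In the JUN family, JUN (start at 59249785 on chromosome 1), the central AP-1 partner, had a capped start peak of 1161 bp in shCON CDT, 1076 bp in shRB CDT and 1262 bp in shCON DHT. JUND (start at 18392466 on chromosome 19), the family member that most cells express without stimulation, was also capped in every list, with widths of 1533, 1698 and 983 bp in the same order. As at FOSL2, the JUND peak of shCON DHT reached less far downstream, 210 bp against 679 bp in shCON CDT and 711 bp in shRB CDT. Peaks of the whole shCON DHT list were also narrower, with a median of 776 bp against 937 bp in shCON CDT and 992 bp in shRB CDT. JUNB (start at 12902310 on chromosome 19) differed from both. Its start was covered by a 464 bp peak in shCON CDT with a score of 446 and by a 750 bp peak in shCON DHT with a score of 574, while shRB CDT had none. Those scores were above 8.17% and 35.6% of their lists. Both dropped out in the top 50% of each list. A second site, from 1.95 to 2.66 kb downstream of the JUNB start, was listed in shCON CDT (score 734) and shRB CDT (score 1000) and not in shCON DHT. JUNB in shRB CDT was counted among the genes with a promoter peak through this second site alone, which lay mostly beyond 2 kb.

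EGR1 (start at 137801181 on chromosome 5) had a capped peak over its start in every list, and most of it lay upstream. In shCON CDT it ran from 1687 bp upstream to 30 bp downstream, and in shRB CDT from 1576 bp upstream to 113 bp downstream. In shCON DHT the same stretch was split into a peak of 386 bp with a score of 678 and a capped peak of 1279 bp, separated by 156 bp. The capped peak of shCON DHT reached 340 bp downstream. ATF3 (start at 212738676 on chromosome 1) had no peak within 2 kb of this start in any list. A capped peak was listed from 42.2 to 44.4 kb downstream in all 3 conditions, 1110 bp wide in shCON CDT, 2147 bp in shRB CDT and 1715 bp in shCON DHT. ATF3 is known to have alternative promoters, and which start this peak is nearest to was not analysed here. The lack of a peak at the start used therefore does not show that ATF3 had no open promoter. A peak 5.88 to 7.04 kb upstream was in both CDT lists, with scores of 906 (shCON CDT) and 826 (shRB CDT), and not in shCON DHT.

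Within 100 kb of the starts there were 40 peaks in each CDT list and 31 in shCON DHT. A window held 4.44 (shCON CDT), 3.44 (shCON DHT) and 4.44 (shRB CDT) peaks on average, against 0.785, 0.836 and 0.961 for all 200 kb tiles of the genome. Every one of the 9 windows held a peak in every list, whereas 40.8% (shCON CDT), 43.0% (shCON DHT) and 45.0% (shRB CDT) of the tiles did. The number ranged from 1 at FOSL2 to 10 at JUNB in shCON CDT and shRB CDT, and from 1 to 6 in shCON DHT. Only 0.0452% of shCON CDT tiles and 0.136% of shRB CDT tiles held 10 peaks or more. These tiles are not a background of gene starts, since those of other genes could not be placed. Of the 49 joined regions, 31 lay around the 3 genes on chromosome 19. The windows also hold other genes, such as HOOK2 and PRDX2 on either side of JUNB and ERCC1 and RTN2 beside FOSB in RefSeq's gene order. A peak in a window is therefore not assigned to the named gene. FOSL2 stood alone: its start peak was the only peak in its window, and the next peak was 358 kb from the start in shCON CDT, 174 kb in shRB CDT and 359 kb in shCON DHT.

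**Figure D2:**
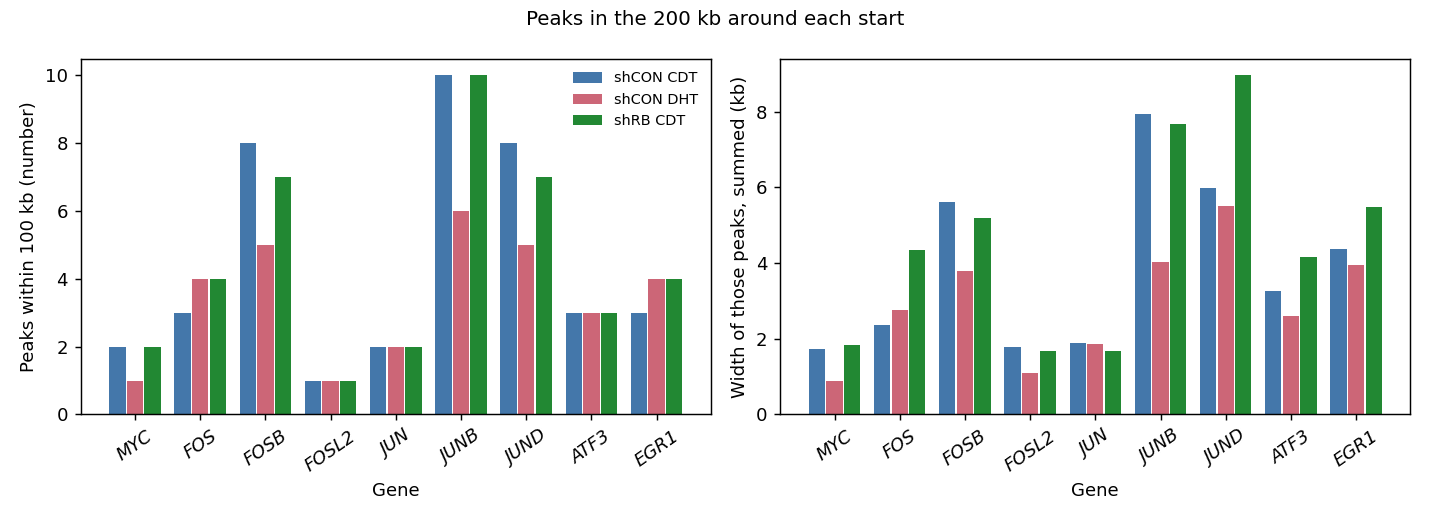
Number of peaks within 100 kb of each start (left) and their summed width in kb (right), by gene and list. Neighbouring peaks of a list are counted separately. FOSB, JUNB and JUND, all on chromosome 19, have the most peaks, with fewer in shCON DHT (5, 6 and 5) than in shCON CDT (8, 10 and 8) or shRB CDT (7, 10 and 7).

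The shCON DHT list, although longer than the shCON CDT list as a whole, had fewer peaks near these genes. Among the top-scoring 50% the numbers were 18 in shCON DHT and 19 in shCON CDT. Over the full lists the difference came from FOSB, JUNB, JUND and MYC, whereas FOS and EGR1 each had 4 peaks in shCON DHT and 3 in shCON CDT, and FOSL2, JUN and ATF3 had equal numbers. Neighbouring peaks of a list were counted separately. In shCON CDT these included JUND pairs 50 and 178 bp apart and an FOSB pair 78 bp apart. In shCON DHT they included the EGR1 pair at the start, 156 bp apart, and an FOS pair 727 bp apart. Summed over the 9 windows, the peaks covered 34.9 kb in shCON CDT, 41.0 kb in shRB CDT and 26.5 kb in shCON DHT. These sums follow both the number and the width of the peaks. The median width near these genes was 824, 943 and 806 bp in the same order, against 937, 992 and 776 bp over the whole lists. At the score cap were 12 of 40 peaks in shCON CDT (30.0%, 95% exact binomial interval 16.6 to 46.5), 10 of 31 in shCON DHT (32.3%, 16.7 to 51.4) and 19 of 40 in shRB CDT (47.5%, 31.5 to 63.9). Over the whole lists these shares were 32.5%, 27.0% and 35.1%, each inside the interval for the peaks near these genes. All intervals here cover counting error only, and neighbouring peaks are not independent.

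**Figure D3:**
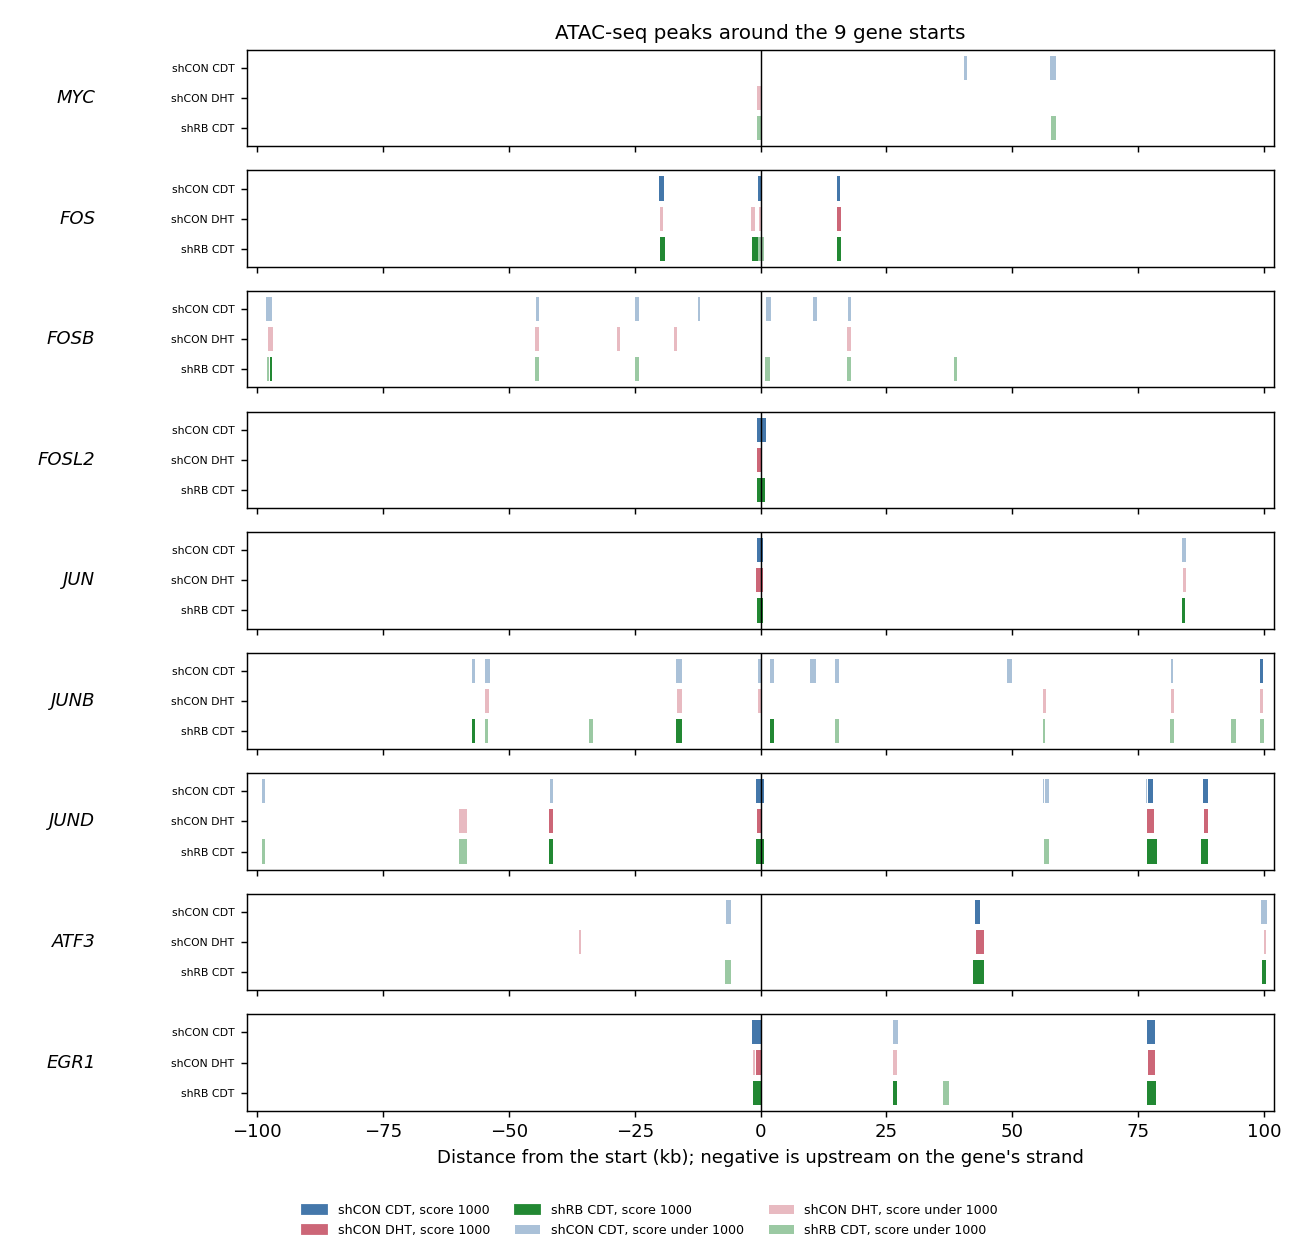
Peaks of the 3 lists (rows) within 100 kb of each start (panels), as distance in kb with upstream to the left. Solid bars are at the score cap and pale bars score lower. FOSL2 has a single site, JUN has 2, and the windows of FOSB (11 joined regions) and JUNB (13) are the most crowded.

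Of the 49 joined regions, 22 were held by all 3 lists (44.9%, 30.7 to 59.8), against 34.0% of all regions in the series. Among the top-scoring 50% the order turned, with 13 of 31 (41.9%) against 44.5%. Beside the start peaks these common sites included an FOS site from 15.1 to 16.1 kb downstream that was capped in all 3 lists. Another FOS site, 18993 to 20135 bp upstream, scored 987 in shCON DHT and was capped in both CDT lists. EGR1 had a common site from 76.7 to 78.6 kb downstream, capped throughout, and one from 26.3 to 27.3 kb downstream with scores of 609 (shCON CDT), 805 (shCON DHT) and 1000 (shRB CDT). At JUN the only other site, 83.8 to 84.5 kb downstream, was common and scored 950, 952 and 1000 in the same order. MYC was the only gene without a common region. Of its 3 regions, the start was in shCON DHT and shRB CDT, a site from 57.6 to 58.8 kb downstream in both CDT lists (scores 661 in shCON CDT and 919 in shRB CDT), and a site from 40.4 to 41.1 kb downstream in shCON CDT (score 441).

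The first comparison asked how RB depletion without hormone was related to open sites near these genes. Of the 40 shRB CDT peaks, 8 had no shCON CDT counterpart (20.0%, 9.05 to 35.6), against 40.9% of the whole shRB CDT list. In the other direction 7 of 40 shCON CDT peaks were absent from shRB CDT (17.5%, 7.34 to 32.8), against 26.8% of the whole list. The interval for shRB CDT lay below the share of its list, while that for shCON CDT included it. The 8 peaks of shRB CDT were at the MYC start, upstream of FOS, 38.3 to 39.1 kb downstream of FOSB, at 3 sites around JUNB, upstream of JUND, and 36.3 to 37.4 kb downstream of EGR1. The FOS peak alone was at the cap, and the other 7 scored from 424 to 557. The 7 shCON CDT peaks scored from 413 to 554 and lay at the JUNB start and 2 further JUNB sites, at 3 FOSB sites and at 1 MYC site. Of the FOSB sites, a pair lay only 78 bp apart. When the 12096 highest-scoring peaks of each list were compared, 4 of 35 shRB CDT peaks were unshared (11.4%, against 31.7% of all) and 9 of 40 shCON CDT peaks (22.5%, against 30.6%). The order of the numbers thus turned while both shares remained below those of the lists. With a 50% reciprocal overlap the numbers were 11 and 11. In the top 50% of each list, 11 of 27 shRB CDT peaks (40.7%) were unshared against 32.4% of all. Both lists were cut there, so a peak also counted as unshared where its shCON CDT counterpart scored below the cut. Of the 8 peaks above, only the FOS peak reached the shRB CDT cut of 784. The higher share in the top 50% is therefore not a share of sites that shCON CDT lacked.

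The second comparison asked the same of 3 hours of DHT in control cells. Of the 40 shCON CDT peaks, 16 had no shCON DHT counterpart (40.0%, 24.9 to 56.7), against 34.6% of the whole list. Of the 31 shCON DHT peaks, 7 had no shCON CDT counterpart (22.6%, 9.59 to 41.1), against 36.7% of the whole list. Both intervals included the share of the list. The 16 peaks were 5 around FOSB, 5 around JUNB, 3 around JUND, 2 around MYC and 1 upstream of ATF3, and none was at the cap. They included a JUND pair 178 bp apart, within the same joined region, and an FOSB pair 78 bp apart, each peak counted separately. Their median score was 503, against 990 for the shCON CDT peaks that were shared. The 7 shCON DHT peaks were the MYC start (502), the FOS upstream site (761), FOSB sites 28.5 kb (518) and 17.2 kb (744) upstream, a JUNB site 56.1 kb downstream (434), a JUND site 59.8 kb upstream (437) and an ATF3 site 36.1 kb upstream (417). Among the top-scoring 50%, 5 of 19 shCON CDT peaks were unshared (26.3%, against 25.6% of all) and 4 of 18 shCON DHT peaks (22.2%, against 28.7%).

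The third comparison set shRB CDT beside shCON DHT, which differ in both hairpin and hormone. Of the 40 shRB CDT peaks, 13 were absent from shCON DHT (32.5%, 18.6 to 49.1), against 42.1% of the whole list. Of the 31 shCON DHT peaks, 4 were absent from shRB CDT (12.9%, 3.63 to 29.8), against 30.6% of the whole list. Those 4 were the JUNB start, the FOSB sites 28.5 and 17.2 kb upstream, and the ATF3 site 36.1 kb upstream. The 13 included the sites just downstream of the FOSB and JUNB starts, and 2 of them were at the cap. The interval for shCON DHT lay below the share of its list. Among the top-scoring 50%, 2 of 18 shCON DHT peaks (11.1%) were unshared against 19.6% of all. For shRB CDT it was 11 of 27 peaks (40.7%) against 31.9%, so that the order turned. Here too a peak counted as unshared where its counterpart scored below the cut of the other list.

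The first 2 comparisons share the shCON CDT list, so sites found in both cannot be read as independent. Regions in shCON DHT and shRB CDT but not shCON CDT numbered 4 of 49 (8.16%, 2.27 to 19.6), against 5.90% of all regions. These were the MYC start (scores 502 in shCON DHT and 537 in shRB CDT), the FOS upstream site (761 and 1000), the JUNB site (434 and 557) and the JUND site (437 and 424). Apart from the FOS site, all lay in the lower part of the score range. Regions in shRB CDT alone numbered 4 (8.16%, 2.27 to 19.6), against 22.5%. Among the top-scoring 50% such regions numbered 8 of 31 (25.8%, against 16.1%), but these were other regions. The 4 scored from 425 to 521, under the shRB CDT cut of 784, and the 8 were regions that another list also held before the cut. Those in shCON DHT alone numbered 3 (6.12%, 1.28 to 16.9), against 15.7%. Regions in shCON CDT alone numbered 6 (12.2%, 4.63 to 24.8), against 12.6%, with an FOSB pair 78 bp apart counted separately. The JUNB start was the only region in both shCON lists and not in shRB CDT; such regions made up 2.69% of the series.

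Regions in both CDT lists and not in shCON DHT numbered 9 of 49 (18.4%, 8.76 to 32.0), against 6.66% of all regions. They were spread over 5 genes. JUNB had 3, from 57.3 to 56.6 kb upstream and from 1.95 to 2.66 and 14.8 to 15.6 kb downstream. FOSB had 2, from 24.9 to 24.1 kb upstream and the site just past its start. JUND had 2, from 56.2 to 57.3 kb downstream and from 99.1 to 98.4 kb upstream, and MYC and ATF3 had 1 each. The highest-scoring region outside the common ones was of this kind in MYC, FOSB, JUNB, JUND and ATF3. Of the 9 regions, 7 were among the 31 near FOSB, JUNB and JUND on chromosome 19 (22.6%), where 7.65% of all regions were of this kind. The other 2 were among 18 regions of the remaining genes (11.1%, against 6.59% elsewhere in the genome). The difference was not seen in the top 50% of each list, where 3 of 31 regions (9.68%) were of this kind against 9.14% of all.

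**Figure D4:**
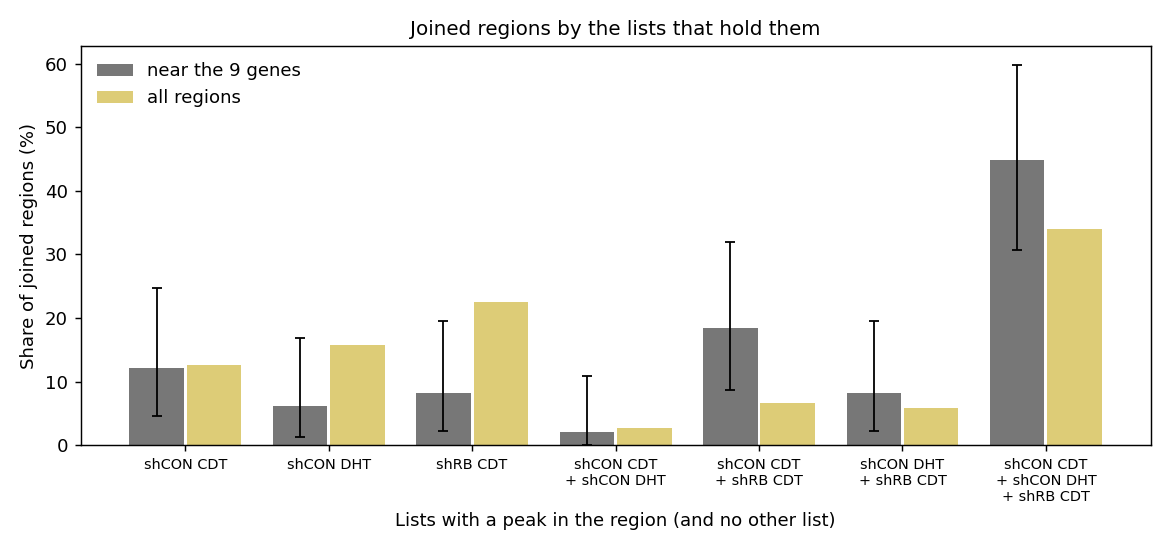
Share of joined regions (percent) held by each combination of lists and by no other list, for the 49 regions near the 9 genes (grey, with exact 95% binomial intervals) and for all 21031 regions (yellow). Regions of both CDT lists are 18.4% near the genes and 6.66% in the series, while regions of shRB CDT alone are 8.16% and 22.5%.

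Peak width was compared where the peaks nearest to the start overlapped. Between shRB CDT and shCON CDT this was so for 6 genes, with a median width ratio of 0.992 and a range from 0.927 at JUN to 1.47 at FOS. Between shCON DHT and shCON CDT it was also so for 6 genes, with a median of 0.890 and a range from 0.615 at FOSL2 to 1.62 at JUNB. JUND was at 0.641 and EGR1 at 0.744, while FOS (1.04) and JUN (1.09) were above 1. The EGR1 ratio uses only the capped peak, of 1279 bp, of a split pair in shCON DHT. That pair spanned 1821 bp, against 1718 bp for the shCON CDT peak, so EGR1 was not narrower as a whole. The nearest peaks, of which that of FOSB lies downstream of its start, did not all differ in one direction. Of the 6, 2 were wider in shRB CDT, with FOSB equal. In shCON DHT 3 of 6 were wider, with EGR1 taken as its capped peak alone, as it also was in the median. At the 19 sites within 100 kb that had exactly 1 peak in every list, the median ratio was 1.11 for shRB CDT over shCON CDT, against 1.04 at all 6240 such sites of the series (quartiles 0.910 and 1.22). For shCON DHT over shCON CDT it was 0.915, against 0.896 (quartiles 0.733 and 1.06). The widest ratio in shRB CDT, 1.93, was at the downstream site of ATF3, and the lowest, 0.457, was at a JUNB site from 54.8 to 53.8 kb upstream.

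**Figure D5:**
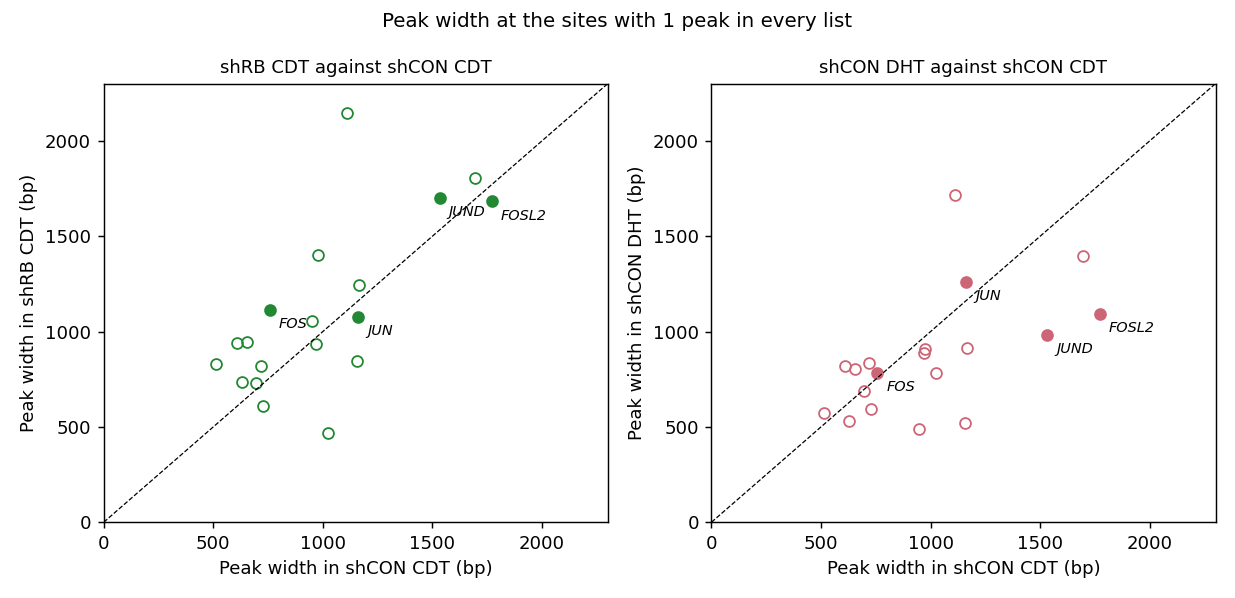
Peak width in bp in shRB CDT (left) and shCON DHT (right) against shCON CDT, for the 19 sites near the genes with exactly 1 peak in every list. Filled points are start peaks and open points are other sites, and the dashed line marks equal width. In shRB CDT 13 of the 19 sites (68.4%) lie above the line, against 57.5% of all such sites of the series, and in shCON DHT 7 (36.8%) do, against 33.4%.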

How the data were processed

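The series holds ATAC-seq of 6 LNCaP libraries in 3 groups of 2. Per the labels, the authors combined replicates 1 and 2 of each group into 1 peak list with an IDR (irreproducible discovery rate) threshold of 0.1, then filtered, merged and scored it. Per the submitters' processing notes, positions are on hg19. Aligner, peak caller and transposase offset were not given in the sources used here. The deposited score (413 to 1000), whose meaning is not given in the sources used here, was used only to rank peaks within a list. Positions count from 1, and MYC was taken to lie on the plus strand.

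A peak was in a window if any base lay within 2 kb or 100 kb of the start, and shared if it overlapped by at least 1 bp. Peaks linked by overlaps were joined into regions. Where lists were cut by score, overlaps and regions were counted among the remaining peaks only. A peak whose counterpart scored below the cut then counted as unshared. Tiles ran from the start of each chromosome to its last peak. Intervals are exact (Clopper-Pearson) at 95%. Python 3.11.15, numpy 2.4.6 and scipy 1.17.1 were used, and the code recovered 50 of 50 planted windows in simulated data.

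All 9 genes are named, and further regions are the highest-scoring one of each gene outside the common regions. Genes, lists and motifs were chosen with earlier results of these data known. Alternatives covered overlap, score and length limits, peak width and window.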

Additional observations from a re-analysis of the deposited data

How the results depend on the processing

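Of 77 alternative values, 58 were counts within 1.5 times the main count or ratios equal to the main ratio, and no width ratio crossed 1. The peaks within 100 kb numbered 19 (shCON CDT) and 18 (shCON DHT) among the top 50% by score. Within 50 kb of the starts they numbered 25 (shCON CDT), 20 (shCON DHT) and 23 (shRB CDT). Both settings give fewer peaks by construction. The shRB CDT peaks absent from shCON CDT numbered 4 in lists cut to the shortest and 5 within 50 kb. The shCON CDT peaks absent from shRB CDT numbered 11 with a 50% reciprocal overlap and 3 in the top 50%. In the top 50%, 4 shCON DHT peaks were absent from shCON CDT and 5 the other way, and 2 shCON DHT peaks were absent from shRB CDT. There 13 regions were held by all 3 lists, 3 by both CDT lists alone and 8 by shRB CDT alone, the latter 1 in lists cut to the shortest. The 8 were regions that another list also held before the cut. The settings for these region counts and for shRB CDT beside shCON DHT were chosen after the data were examined. The median width ratio of the peaks nearest to the start for shRB CDT was 0.984 in the top 50% and with a 1 kb promoter window, and for shCON DHT 0.693 in the top 50%. For the remaining values the cause was not tested. No paired analysis was possible because the replicates of a group were merged before deposit, and so none could be left out. Planned work on further genes and markers was not run for want of an hg19 annotation.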
